A study of Homo sapiens with 9 samples.

Results

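Mitotic entry, spindle and exit genes were examined in A673 cells, a widely used line of Ewing sarcoma, after siRNA against LRWD1. The group holds 46 genes, taken by symbol from the 23368 genes of the count table, and all 46 were detected well enough to be tested among 13648 genes. The cells had received 13 nM of siLRWD1-5, of siLRWD1-6 or of a scrambled siRNA by reverse transfection with a lipid reagent, and RNA was taken 48 h later. All 9 cultures grew in Zeocin and blasticidin S with Tet-approved serum, and each group holds 3 libraries, numbered as series 1 to 3 and described as independent experiments. LRWD1, also called ORCA, binds the origin recognition complex, and the design asked how each of these siRNAs changed the transcriptome of the line.

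A cell enters mitosis when CDK1, bound to cyclin B, is switched on by CDC25 phosphatases. Polo-like and Aurora kinases and kinesin motors then build the bipolar spindle, condensins compact the chromosomes, and exit begins when the anaphase-promoting complex (APC/C), with its coactivator CDC20 and later FZR1, marks securin and cyclin B for destruction. Most of these transcripts accumulate in G2 and mitosis. Their promoters are repressed in quiescent cells by the DREAM complex and activated in cycling cells by B-MYB and FOXM1, which act through the MuvB core at a short element near the start site called the cell cycle homology region (CHR).

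Promoter windows from RefSeq (GRCh38.p14, 250 bases before to 50 after the annotated start) were found for 39 of the 46 genes. The windows were searched on both strands for the CHR letters TTTGAA and TTTAAA, of which TTTGAA reads TTCAAA on the other strand and TTTAAA reads the same on both. The following stretches are shown because they carry such a match near the start of genes named in the results below, with the match in capitals and each stretch read 5′ to 3′ on the strand of its gene.

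CDC20: gttgcgacggttggatTTTGAAggagccaa
KIF11: gctactctgtctctttTTCAAAttgaggcg
DLGAP5: ggctcggtgcggcaagTTTGAAtttcgtgg
CCNB2: cgcaagcgacgcggtaTTTGAAtcctggaa
PLK1: cgttcccagcgccgcgTTTGAAttcgggga
ESPL1: ttggcagccgcggataTTTGAAaggagggt
MKI67: tgaatcttcgttttcgTTTGAAttgggcgg
KIF15: cgatccaagcgccaaaTTCAAAtttgcggc

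They lie at chr1:43358900-43358929 (CDC20, plus strand), chr10:92593086-92593115 (KIF11, plus strand), chr14:55191569-55191598 (DLGAP5, minus strand) and chr15:59105101-59105130 (CCNB2, plus strand). The others lie at chr16:23678844-23678873 (PLK1, plus strand), chr12:53268252-53268281 (ESPL1, plus strand), chr10:128126439-128126468 (MKI67, minus strand) and chr3:44761743-44761772 (KIF15, plus strand). Counted from the annotated start, the first base of the match was at -65 in CDC20, -29 in CCNB2, -29 in PLK1 and -31 in ESPL1. A match beginning between -80 and 30 was present in 24 of the 39 windows (61.5%), against 4.96% of the 9525 tested genes with a window and 8.85% of all 27305 windows. CCAAT, the letters bound by NF-Y, was present anywhere in 69.2% of the 39 windows and in 36.8% of those of tested genes. Of 33 windows of other mitotic genes, 69.7% held CCAAT and 18 held a CHR match beginning between -80 and 30. CCAAT was present in 52.6% of 19 kinetochore, 53.8% of 26 S phase and 37.5% of 16 APC/C windows. Among windows of genes acting in the same steps, a match in that range was present in 10 of 19 kinetochore genes and in 0 of 16 APC/C genes, which are 14 subunits of the complex, its E2 enzyme UBE2S and its inhibitor FBXO5. CCNA2, CDC25A, CDC25B, CDC25C, AURKB, NEK2, CKAP2 and MYBL2 held neither pattern anywhere in their windows. TOP2A held TTTGAA 2 times, outside that range. A match describes letters only. AURKA, TTK, BIRC5, TPX2, RACGAP1, UBE2C and FOXM1 were not matched.

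The libraries held between 11971179 and 15674452 counts. Levels are given as CPM, the count relative to the library size after TMM scaling, and log2 fold changes, standard errors (SE) and adjusted p-values come from edgeR's robust quasi-likelihood test over all 9 libraries, with Benjamini-Hochberg adjustment over all 13648 genes and a threshold of 0.05. Counts of the 46 genes ranged from 142 (CDC25C, scrambled replicate 2) to 9148 (MYBL2, siLRWD1-5 replicate 1). LRWD1 had 10.6, 11.3 and 10.4 CPM in siLRWD1-5 libraries, 6.55, 8.11 and 8.55 CPM in siLRWD1-6 libraries and 49.1, 54.6 and 49.3 CPM in scrambled libraries, so each siRNA lowered it in every library. Of 10 genes known to mark Ewing sarcoma, 9 averaged at least 1 CPM, whereas CD99 had a count of 0 in 8 libraries and of 50 in siLRWD1-5 replicate 2. How reads were assigned to genes is not given, so these counts do not show that CD99 RNA was absent. Of 15 defining markers of other cell types, 0 averaged 1 CPM, 3 had a count of 0 in every library, and their summed level was 1.56 to 2.52 CPM with siLRWD1-5, 1.10 to 2.29 CPM with siLRWD1-6 and 1.23 to 1.95 CPM with scrambled siRNA.

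Scrambled replicate 2 stood apart for these genes, so counts of calls against scrambled siRNA are given below with and without it. Because it was the lowest scrambled library for all 46, leaving it out lowers every fold change against scrambled siRNA by construction. Calls and p-values of that fit carry this shift. Summed over the 46 genes, the level was 6380, 5661 and 6216 CPM in siLRWD1-5 libraries, 6435, 6239 and 6303 CPM in siLRWD1-6 libraries, and 7315, 4411 and 7512 CPM in scrambled libraries. The scrambled group therefore holds both the highest libraries (replicates 1 and 3) and the lowest (replicate 2). In scrambled replicate 2 all 46 genes had the lowest value of the 3 scrambled libraries, against 39.8% of all tested genes, and the median difference from the mean of replicates 1 and 3 was -0.75 on the log2(CPM + 1) scale. The deficit ran from -1.19 for MKI67, which encodes the proliferation marker Ki-67, and -1.18 for the kinesin KIF15, to -0.11 for FZR1. It had a median of -0.78 (from -1.19 to -0.52) in the 24 genes with a CHR match near the start and of -0.70 (from -0.95 to -0.11) in the 15 with a window and no such match, and the difference between these sets was not tested. In these bulk samples fewer cells in G2 and mitosis and less RNA of these genes per cell cannot be told apart.

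A smaller deficit was seen in replicate 2 of siLRWD1-5, in which 43 of the 46 genes had the lowest value of that group, with a median difference of -0.15 from its replicates 1 and 3. Over all tested genes, 34.3% had their lowest siLRWD1-5 value in that replicate. In siLRWD1-6, replicates 2 and 3 each held the lowest value of the group for 21 genes (45.7%), against 32.8% and 34.3% of all tested genes, with medians of -0.027 and -0.019, so replicate 2 did not stand apart there. Other gene groups also stood off in scrambled replicate 2, to unequal degrees. Its median was -0.74 in 40 other mitotic genes, all of which had their lowest scrambled value there, -0.68 in 23 kinetochore and checkpoint genes (23 of 23 lowest) and -0.60 in 30 S phase genes (29 of 30 lowest). It was -0.21 in 19 genes that control the cell cycle expression programme (14 of 19 lowest), -0.043 in 15 APC/C genes (8 of 15 lowest), 0.18 in 9 tested Ewing sarcoma markers (2 of 9 lowest) and 0.013 over all tested genes. CDKN1A, which encodes the CDK inhibitor p21 and was picked out after its values were seen, was high there instead, with 224, 335 and 300.5 CPM in siLRWD1-5 libraries, 322, 453 and 399 CPM in siLRWD1-6 libraries and 275, 691 and 277 CPM in scrambled libraries. Replicate 2 held its highest value in each group, and its part in the deficit of the mitotic genes was not tested. CDKN1B, which encodes another CDK inhibitor of the same 19 genes, went the other way in scrambled replicate 2, with 61.3, 28.4 and 60.3 CPM in scrambled libraries. The coefficient of variation of the 46 genes had a median of 6.95% among siLRWD1-5 libraries, 3.60% among siLRWD1-6 libraries and 27.4% among scrambled libraries, against 7.17%, 6.20% and 10.99% over all tested genes in the same groups.

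**Figure D1:**
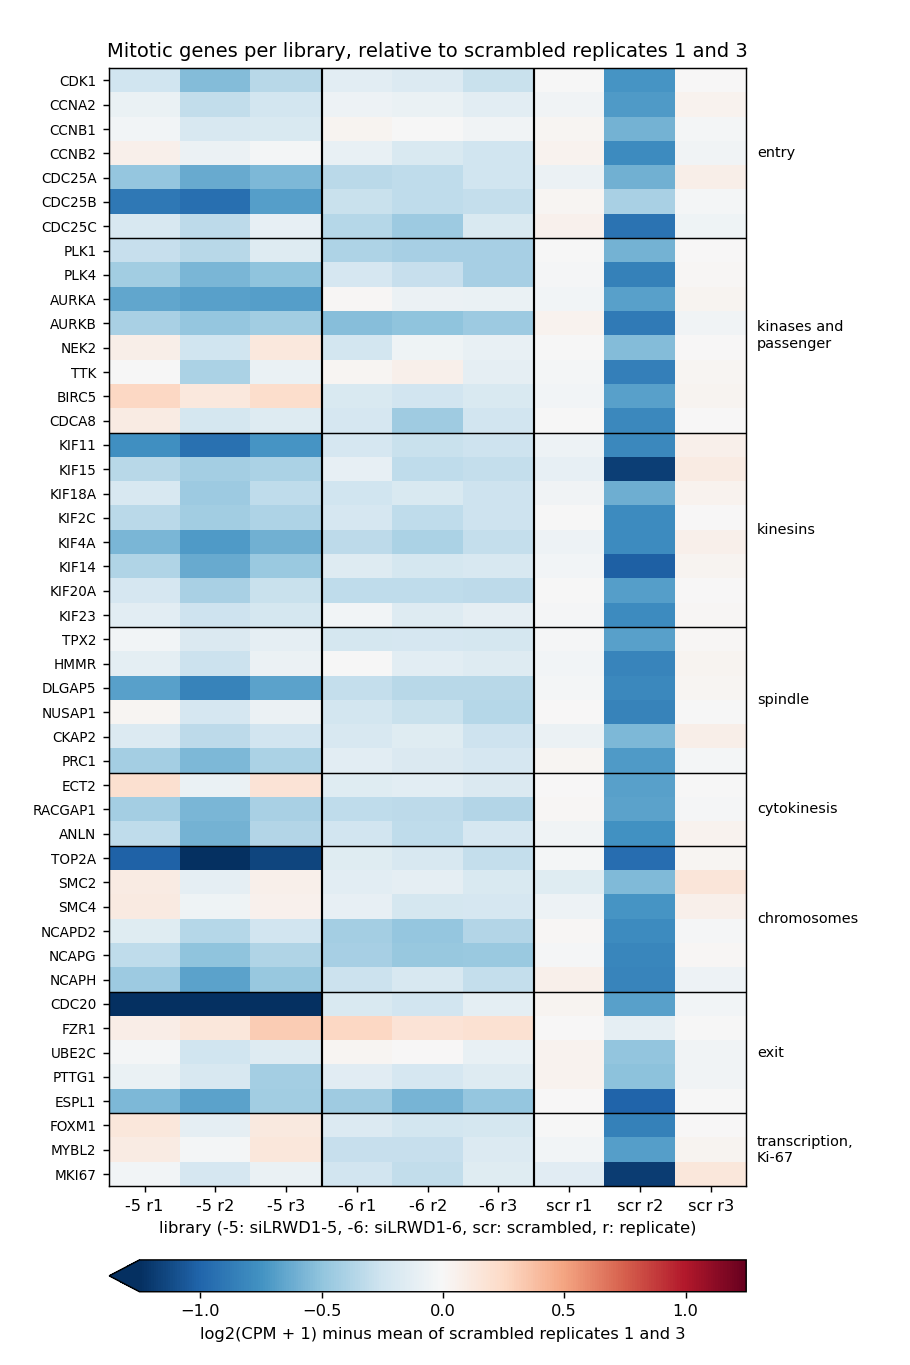
Each row is a mitotic gene, ordered by role, and each column a library. Colour gives log2(CPM + 1) minus the mean of scrambled replicates 1 and 3, so those 2 columns are near 0 by construction, and values below the scale take its end colour. Scrambled replicate 2 is low in nearly every row, and CDC20 and TOP2A are the darkest rows with siLRWD1-5.

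**Figure D2:**
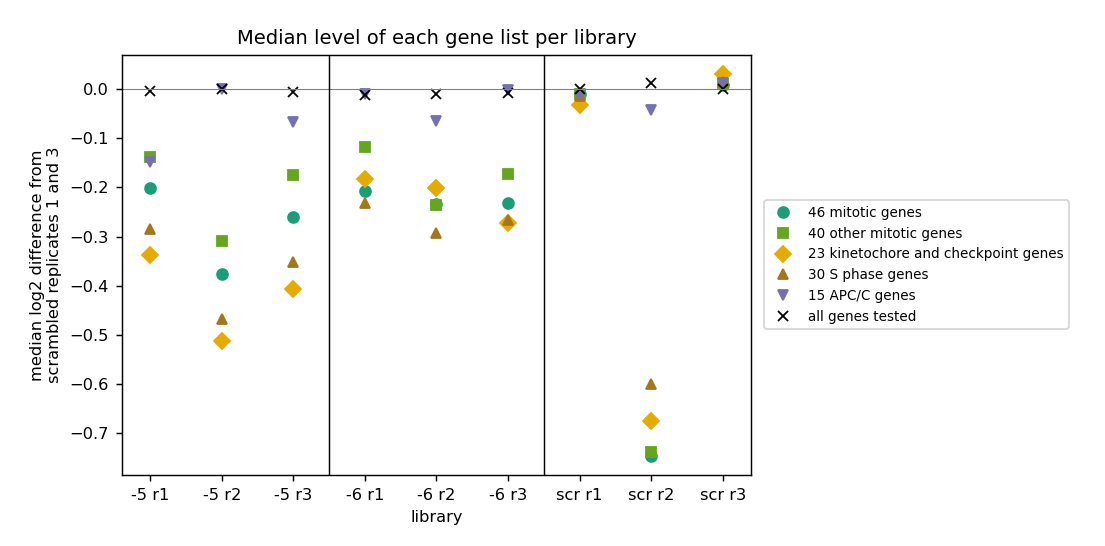
Median of the same difference over each gene list (y axis, log2 scale) in each library (x axis). The median of the 46 mitotic genes is -0.75 in scrambled replicate 2 and between -0.38 and -0.20 in the siRNA libraries, while all tested genes stay near 0.

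With siLRWD1-5 against scrambled siRNA, 5 of the 46 genes were lower (CDC20, TOP2A, KIF11, CDC25B and AURKA) and 1 was higher (FZR1), where 20.3% of all tested genes were lower and 18.5% higher. Calls in the lower direction came to 10.9% of the 46, below the share over all genes. The median log2 fold change of the 46 was -0.089, against -0.0061 over all genes. Without scrambled replicate 2, 28 were lower and 2 higher, with a median of -0.26, where 25% of all tested genes were lower and 24% higher. With the replicate number as a block, 7 were lower and 2 higher (background 22.3% and 21.2%), and in a fit of these 6 libraries alone 3 were lower and 0 higher (background 16.7% and 15.4%, with 1 higher at an unadjusted p under 0.05).

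CDC20, the APC/C coactivator that triggers anaphase and the target of the spindle checkpoint, changed most. Its level was 38.7, 34.7 and 38.2 CPM in siLRWD1-5 libraries, 153, 148 and 160.1 CPM in siLRWD1-6 libraries and 179, 109 and 170.0 CPM in scrambled libraries. The siLRWD1-5 libraries lay far below every other library, and the siLRWD1-6 libraries lay within the scrambled range. CDC20 was 4.11-fold lower with siLRWD1-5 than with scrambled siRNA (a log2 fold change of -2.04, SE 0.17, adjusted p = 1.7e-05) and remained so without scrambled replicate 2 (-2.23). It was 4.13-fold higher with siLRWD1-6 than with siLRWD1-5 (a log2 fold change of 2.04, SE 0.17, adjusted p = 1.3e-05). With siLRWD1-6 against scrambled siRNA its log2 fold change was 0.0065 (SE 0.16), and -0.18 without scrambled replicate 2 (adjusted p = 0.037).

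FZR1, also called CDH1, replaces CDC20 on the APC/C late in mitosis and keeps it active in G1. It had 84.3, 88.1 and 99.8 CPM in siLRWD1-5 libraries, 95.3, 90.1 and 91.1 CPM in siLRWD1-6 libraries and 80.1, 73.8 and 79.3 CPM in scrambled libraries. Every siRNA library was above every scrambled library, by a small margin. FZR1 rose with siLRWD1-5 (a log2 fold change of 0.22, SE 0.073, adjusted p = 0.032) and with siLRWD1-6 (0.25, SE 0.073, adjusted p = 0.041), comparisons that share the scrambled libraries. The siLRWD1-5 call was lost without scrambled replicate 3 or siLRWD1-5 replicate 3. The siLRWD1-6 call was lost without any single siLRWD1-6 or scrambled library other than scrambled replicate 2. Adjusted p-values then ran up to 0.13 and 0.15 in edgeR. The fit of the compared groups alone also lost the siLRWD1-5 call and kept that of siLRWD1-6. Of the other exit genes, separase (ESPL1), which cleaves cohesin, had 122, 112 and 133 CPM in siLRWD1-5 libraries, 131, 119.6 and 128 CPM in siLRWD1-6 libraries and 180.1, 89.1 and 178 CPM in scrambled libraries. Its siRNA libraries lay between scrambled replicate 2 and the other scrambled libraries, and its log2 fold changes were -0.29 with siLRWD1-5 (adjusted p = 0.35) and -0.24 with siLRWD1-6 (adjusted p = 0.53). Without scrambled replicate 2 these were -0.56 (adjusted p = 5.5e-07) and -0.49 (adjusted p = 7.9e-06). The ubiquitin-conjugating enzyme UBE2C did not pass against scrambled siRNA, with or without scrambled replicate 2. Securin (PTTG1), the inhibitor of separase, passed with siLRWD1-5 when scrambled replicate 2 was left out (-0.23, adjusted p = 0.022), but its reads can be shared with PTTG2 and PTTG3P, which are separate entries of the table.

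Of the 7 genes of mitotic entry, CDC25B was the only one called by the main edgeR fit in the comparisons against scrambled siRNA. CDC25B encodes the phosphatase that starts CDK1 activation at the centrosome. It had 88.9, 86.0 and 102 CPM in siLRWD1-5 libraries, 137, 133 and 135 CPM in siLRWD1-6 libraries and 169, 125 and 163 CPM in scrambled libraries. All siLRWD1-5 libraries were below all scrambled libraries, and the siLRWD1-6 libraries overlapped the scrambled range. The gene was 1.65-fold lower with siLRWD1-5 (a log2 fold change of -0.72, SE 0.11, adjusted p = 0.00036), whereas its log2 fold change with siLRWD1-6 was -0.17 (SE 0.11, adjusted p = 0.31). CDC25A, which also acts at the entry into S phase, had a log2 fold change of -0.39 with siLRWD1-5 (adjusted p = 0.052). It passed in DESeq2 and with the replicate block (adjusted p = 0.026).

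CDK1 itself had 164, 133 and 154 CPM in siLRWD1-5 libraries, 178, 173 and 161 CPM in siLRWD1-6 libraries and 195, 117 and 195 CPM in scrambled libraries. Again the siRNA libraries lay between scrambled replicate 2 and the other scrambled libraries. Cyclin B1 (CCNB1), the partner of CDK1, showed 256, 228 and 229 CPM in siLRWD1-5 libraries, 267, 260.3 and 255 CPM in siLRWD1-6 libraries and 266, 173 and 257 CPM in scrambled libraries. Its siLRWD1-6 libraries were level with scrambled replicates 1 and 3, and it was not called in either comparison against scrambled siRNA, with or without scrambled replicate 2. Cyclin B2 (CCNB2), the other mitotic B-type cyclin, had 95.6, 87.1 and 89.8 CPM in siLRWD1-5 libraries, 85.9, 80.0 and 77.1 CPM in siLRWD1-6 libraries and 94.6, 52.8 and 88.6 CPM in scrambled libraries. In contrast to cyclin B1, its siLRWD1-6 libraries were all below its siLRWD1-5 libraries, by a narrow margin (85.9 against 87.1 CPM at the closest). With scrambled replicate 2 left out, 4 of the 7 entry genes were lower with siLRWD1-5 (CDK1, cyclin A2 (CCNA2), CDC25A and CDC25B). With siLRWD1-6, 3 of 7 were lower (CDC25A, CDC25B and CDC25C). These counts carry the shift by construction, and 25% and 13.3% of all tested genes were lower in that fit.

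Among the 8 kinases and chromosomal passenger genes, AURKA was lower with siLRWD1-5. AURKA encodes Aurora A, the kinase of centrosomes and spindle poles. Its level was 72.8, 71.5 and 71.0 CPM in siLRWD1-5 libraries, 116, 109 and 109 CPM in siLRWD1-6 libraries and 113, 71.6 and 118 CPM in scrambled libraries. The siLRWD1-5 libraries were nearly equal to one another and level with scrambled replicate 2, so these groups overlapped. The log2 fold change with siLRWD1-5 was -0.49 (SE 0.15, adjusted p = 0.03). The call was lost when any single siLRWD1-5 or scrambled library other than scrambled replicate 2 was left out, with adjusted p-values up to 0.099. No filter on low counts and the fit of these groups alone also lost it. Without scrambled replicate 2 the log2 fold change was -0.68 (adjusted p = 7.2e-09). With siLRWD1-6 the log2 fold change was 0.15 (adjusted p = 0.57).

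AURKB encodes the kinase of the chromosomal passenger complex, which corrects spindle attachments. It had 79.5, 75.7 and 78.2 CPM in siLRWD1-5 libraries, 73.0, 74.2 and 77.2 CPM in siLRWD1-6 libraries and 109, 56.8 and 103 CPM in scrambled libraries. Both siRNA groups lay in the same narrow band, below scrambled replicates 1 and 3 and above replicate 2, and without replicate 2 the log2 fold changes were -0.45 and -0.49 with siLRWD1-5 and siLRWD1-6 (adjusted p = 4.1e-06 and 3.5e-06). Survivin (BIRC5), a subunit of the same complex, had a fold change of opposite sign with siLRWD1-5. It had 177, 162 and 173 CPM in siLRWD1-5 libraries, 130.1, 125 and 129.8 CPM in siLRWD1-6 libraries and 145, 92.6 and 152 CPM in scrambled libraries. All siLRWD1-5 libraries exceeded all others, and the log2 fold change against scrambled siRNA was 0.40 (SE 0.15, adjusted p = 0.067). It passed the threshold in DESeq2, with the replicate block (adjusted p = 0.025) and without scrambled replicate 2 (0.20, adjusted p = 0.0075). With siLRWD1-6 and without scrambled replicate 2 it was lower (-0.20, adjusted p = 0.016). Borealin (CDCA8), a further subunit, was lower with siLRWD1-6 in that fit (-0.29, adjusted p = 0.025) and not called with siLRWD1-5 (-0.084, adjusted p = 0.48). Polo-like kinase 1 (PLK1), which drives mitosis from entry to cytokinesis, had 146, 140.2 and 160.1 CPM in siLRWD1-5 libraries, 137, 134 and 134 CPM in siLRWD1-6 libraries and 179, 118 and 179.6 CPM in scrambled libraries. It and PLK4, the kinase of centriole duplication, were lower with each siRNA without scrambled replicate 2, and not called with it. TTK, the checkpoint kinase also called MPS1, and NEK2, a kinase of centrosome separation, were not called with or without it.

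KIF11 was the member called among the 8 kinesins. It encodes Eg5, the motor that pushes spindle poles apart. KIF11 had 100.5, 89.7 and 103 CPM in siLRWD1-5 libraries, 148, 142 and 143 CPM in siLRWD1-6 libraries and 164, 97.5 and 180.0 CPM in scrambled libraries. The siLRWD1-5 libraries were level with scrambled replicate 2 and far below scrambled replicates 1 and 3. The log2 fold change with siLRWD1-5 was -0.59 (SE 0.19, adjusted p = 0.035). This call was lost when any single siLRWD1-5 or scrambled library other than scrambled replicate 2 was left out (adjusted p up to 0.11). It was also lost with no filter on low counts and in the fit of these groups alone. Without scrambled replicate 2 the log2 fold change was -0.82 (adjusted p = 1.3e-09). Once scrambled replicate 2 was left out, all 8 kinesins were lower with siLRWD1-5, from -0.82 for KIF11 to -0.21 for KIF23, a motor of the central spindle. With siLRWD1-6, KIF11, KIF18A, KIF2C, KIF4A and KIF20A were lower in that fit, from -0.33 to -0.22. Leaving that library out lowers all these fold changes by construction. Of all tested genes, 25% were lower with siLRWD1-5 and 13.3% with siLRWD1-6 in that fit. The counts of KIF4A, the chromosome-bound kinesin, are uncertain because its near copy KIF4B is also in the table, at 12.3 to 20.1 CPM. KIF14, a kinesin of cytokinesis, had 82.2, 68.7 and 77.4 CPM in siLRWD1-5 libraries, 95.6, 92.1 and 92.8 CPM in siLRWD1-6 libraries and 105, 52.3 and 109 CPM in scrambled libraries. Scrambled replicate 2 was the lowest of the 9 libraries for KIF14, and the siRNA libraries lay below scrambled replicates 1 and 3. KIF15, a motor that can stand in for Eg5, had a log2 fold change without scrambled replicate 2 of -0.40 with siLRWD1-5 (adjusted p = 0.0013) and of -0.23 with siLRWD1-6 (adjusted p = 0.069). Per length, it was the lowest of the 46 genes (5.2, 5.79 and 5.56 CPM per kilobase with siLRWD1-5, siLRWD1-6 and scrambled siRNA).

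Spindle and cytokinesis genes gave no call against scrambled siRNA with all libraries in edgeR (0 of 6 and 0 of 3, with 1 spindle gene below an unadjusted p of 0.05 with siLRWD1-5). That gene was DLGAP5, which encodes the spindle protein HURP. It had 88.9, 79.5 and 89.4 CPM in siLRWD1-5 libraries, 116, 112 and 112 CPM in siLRWD1-6 libraries and 141, 81.2 and 145 CPM in scrambled libraries. The siLRWD1-6 libraries lay between the siLRWD1-5 libraries and scrambled replicates 1 and 3. Its log2 fold change with siLRWD1-5 was -0.51 (SE 0.18, adjusted p = 0.055), past the threshold in DESeq2, with the replicate block (adjusted p = 0.036) and without scrambled replicate 2 (-0.73, adjusted p = 3.9e-09). TPX2, which activates Aurora A on the spindle, had 329, 297 and 312 CPM in siLRWD1-5 libraries, 289, 291 and 289 CPM in siLRWD1-6 libraries and 334, 210.3 and 339 CPM in scrambled libraries. All siRNA libraries lay between scrambled replicate 2 and the other scrambled libraries. In the fit without scrambled replicate 2, the microtubule bundler PRC1 and CKAP2 were lower with each siRNA, as were the cytokinesis genes RACGAP1 and ANLN (anillin), whereas ECT2, the exchange factor that activates RhoA at the furrow, was not called with either. PRC1 had 222, 203 and 228 CPM in siLRWD1-5 libraries, 274, 265 and 259 CPM in siLRWD1-6 libraries and 305, 183 and 294 CPM in scrambled libraries. ECT2 had 152, 125 and 149 CPM in siLRWD1-5 libraries, 119, 121 and 116 CPM in siLRWD1-6 libraries and 133, 82.3 and 131 CPM in scrambled libraries. The siLRWD1-6 libraries were thus above the siLRWD1-5 libraries for PRC1 and below them for ECT2. With siLRWD1-6, 5 of the 6 spindle genes were lower in that fit: PRC1, CKAP2, DLGAP5 (-0.32, adjusted p = 0.00053), NUSAP1 (-0.28, adjusted p = 0.0038) and TPX2 (-0.20, adjusted p = 0.0094). That fit lowers these values by construction, and 13.3% of all tested genes were lower with siLRWD1-6 in it. HMMR was called with neither siRNA. Counts of RACGAP1 are uncertain because the table also holds the copy RACGAP1P.

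TOP2A was the called member of the 6 chromosome genes. It encodes topoisomerase II alpha, which untangles sister chromatids. Its level was 153, 129 and 139 CPM in siLRWD1-5 libraries, 279.6, 269.5 and 253 CPM in siLRWD1-6 libraries and 306, 160.3 and 315 CPM in scrambled libraries. Each siLRWD1-5 library was below each scrambled library, by a narrow margin to scrambled replicate 2. TOP2A was 1.85-fold lower with siLRWD1-5 (a log2 fold change of -0.89, SE 0.22, adjusted p = 0.013) and -1.14 on the log2 scale without scrambled replicate 2. Its log2 fold change with siLRWD1-6 was 0.038 (adjusted p = 0.93), and without scrambled replicate 2 it was called lower there too (-0.20, adjusted p = 0.024). The condensin subunits did not move as a block. NCAPD2 had 244, 212 and 229 CPM in siLRWD1-5 libraries, 201, 194 and 211 CPM in siLRWD1-6 libraries and 274, 157 and 269 CPM in scrambled libraries. Its siLRWD1-6 libraries were below its siLRWD1-5 libraries, by a very narrow margin (210.9 against 211.8 CPM at the closest). SMC4 had 310.4, 276 and 297 CPM in siLRWD1-5 libraries, 267, 247 and 248 CPM in siLRWD1-6 libraries and 275, 172 and 299 CPM in scrambled libraries. The siLRWD1-5 libraries of SMC4 lay around those of scrambled replicates 1 and 3, while its siLRWD1-6 libraries lay below them. In the fit of 8 libraries without scrambled replicate 2, the condensin I subunits NCAPD2, NCAPG and NCAPH were lower with siLRWD1-5 (from -0.54 to -0.25) and with siLRWD1-6 (from -0.44 to -0.25). The ATPase subunits SMC2 and SMC4, which condensins I and II share, had log2 fold changes of 0.014 and 0.038 with siLRWD1-5 and of -0.14 and -0.17 with siLRWD1-6 in that fit, and were not called.

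The transcription factors of the group had positive log2 fold changes with siLRWD1-5 that did not pass the threshold (0.27 for MYBL2, adjusted p = 0.21, and 0.28 for FOXM1, adjusted p = 0.29). MYBL2 encodes B-MYB and had the highest level per length of the 46 genes (209, 167 and 173 CPM per kilobase with siLRWD1-5, siLRWD1-6 and scrambled siRNA). It had 576, 527 and 592 CPM in siLRWD1-5 libraries, 439, 439 and 475 CPM in siLRWD1-6 libraries and 524, 333 and 548 CPM in scrambled libraries. FOXM1 had 263, 220.0 and 259 CPM in siLRWD1-5 libraries, 211, 203 and 204 CPM in siLRWD1-6 libraries and 237, 133 and 239 CPM in scrambled libraries. The siLRWD1-5 levels of both factors were close to those of scrambled replicates 1 and 3. Their log2 fold changes with siLRWD1-5 without scrambled replicate 2 were 0.077 (adjusted p = 0.31) and 0.053 (adjusted p = 0.54). With siLRWD1-6 they were -0.24 and -0.20 in that fit, both called lower (adjusted p = 0.005 and 0.03). MKI67 had 393, 349 and 381 CPM in siLRWD1-5 libraries, 343, 326 and 363 CPM in siLRWD1-6 libraries and 366, 177 and 446 CPM in scrambled libraries. Scrambled replicates 1 and 3 differed from each other for this gene by more than the siLRWD1-5 libraries did.

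**Figure D3:**
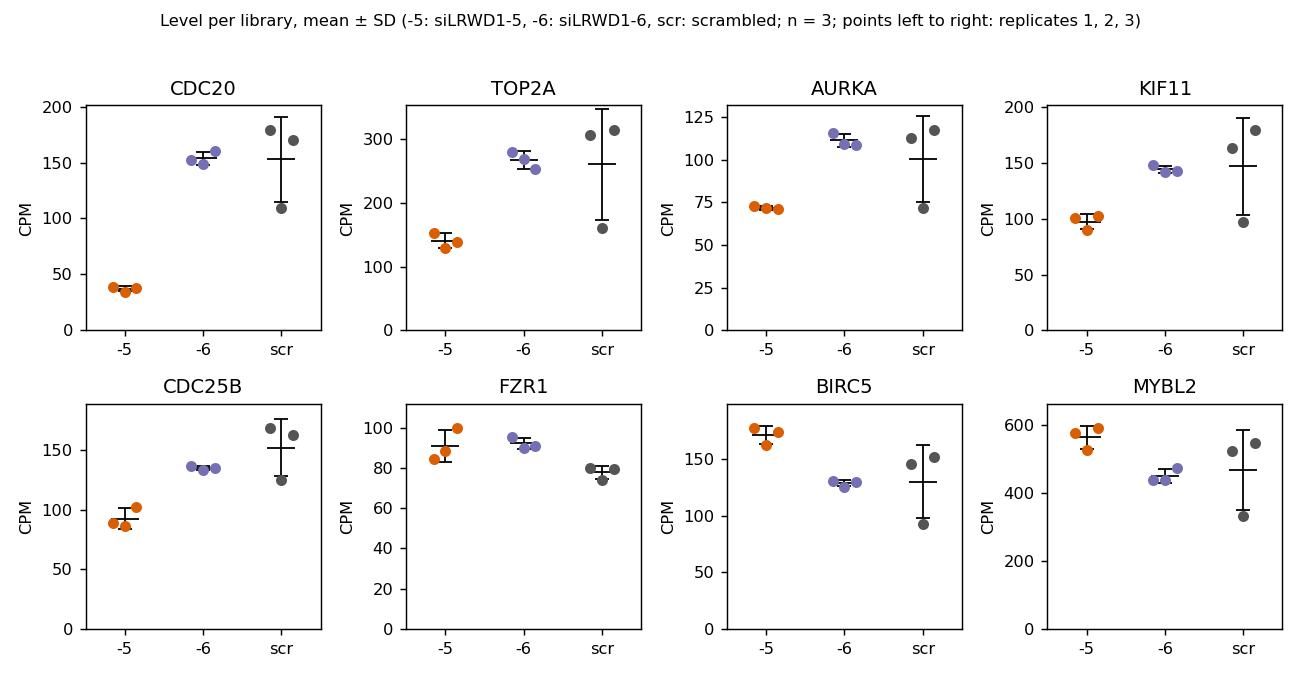
Level in CPM (y axis, from 0) of 8 mitotic genes in each library, with the mean and SD of each group (n = 3). The siLRWD1-5 libraries of CDC20 are near 38 CPM, below all others, and in each panel the lowest scrambled point is replicate 2.

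With siLRWD1-6 against scrambled siRNA, FZR1 was the 1 gene of 46 called higher and 0 were called lower, where 8.81% of all tested genes were higher and 7.78% lower. In edgeR 0 were lower at an unadjusted p under 0.05, and DESeq2 also called 0 lower. The median log2 fold change was -0.023, against -0.020 over all genes, and the values of the 46 ran from -0.26 (AURKB) to 0.25 (FZR1). Without scrambled replicate 2, 29 were lower and 1 higher, with a median of -0.21, where 13.3% of all tested genes were lower and 15.3% higher. The values then ran from -0.49 (ESPL1) to 0.22 (FZR1), a narrower span than the -2.23 (CDC20) to 0.20 (BIRC5) of siLRWD1-5 in the same fit. Of the 28 genes lower with siLRWD1-5 and the 29 lower with siLRWD1-6 in that fit, 21 were lower with both. Both lists carry the shift by construction, and the share of all tested genes lower with both was not taken. The comparisons share their scrambled libraries, and with that library left out they rest on 2 of them. Leaving out replicate 2 of all 3 groups gave 27 lower and 3 higher with siLRWD1-5 (background 23.1% and 23.9%) and 25 lower and 1 higher with siLRWD1-6 (background 12% and 14.1%). With all of replicate 2 kept, the replicate block left siLRWD1-6 at 0 lower and 1 higher (background 9.84% and 10.8%), as did the fit of these 6 libraries alone (background 5.22% and 6.95%).

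**Figure D4:**
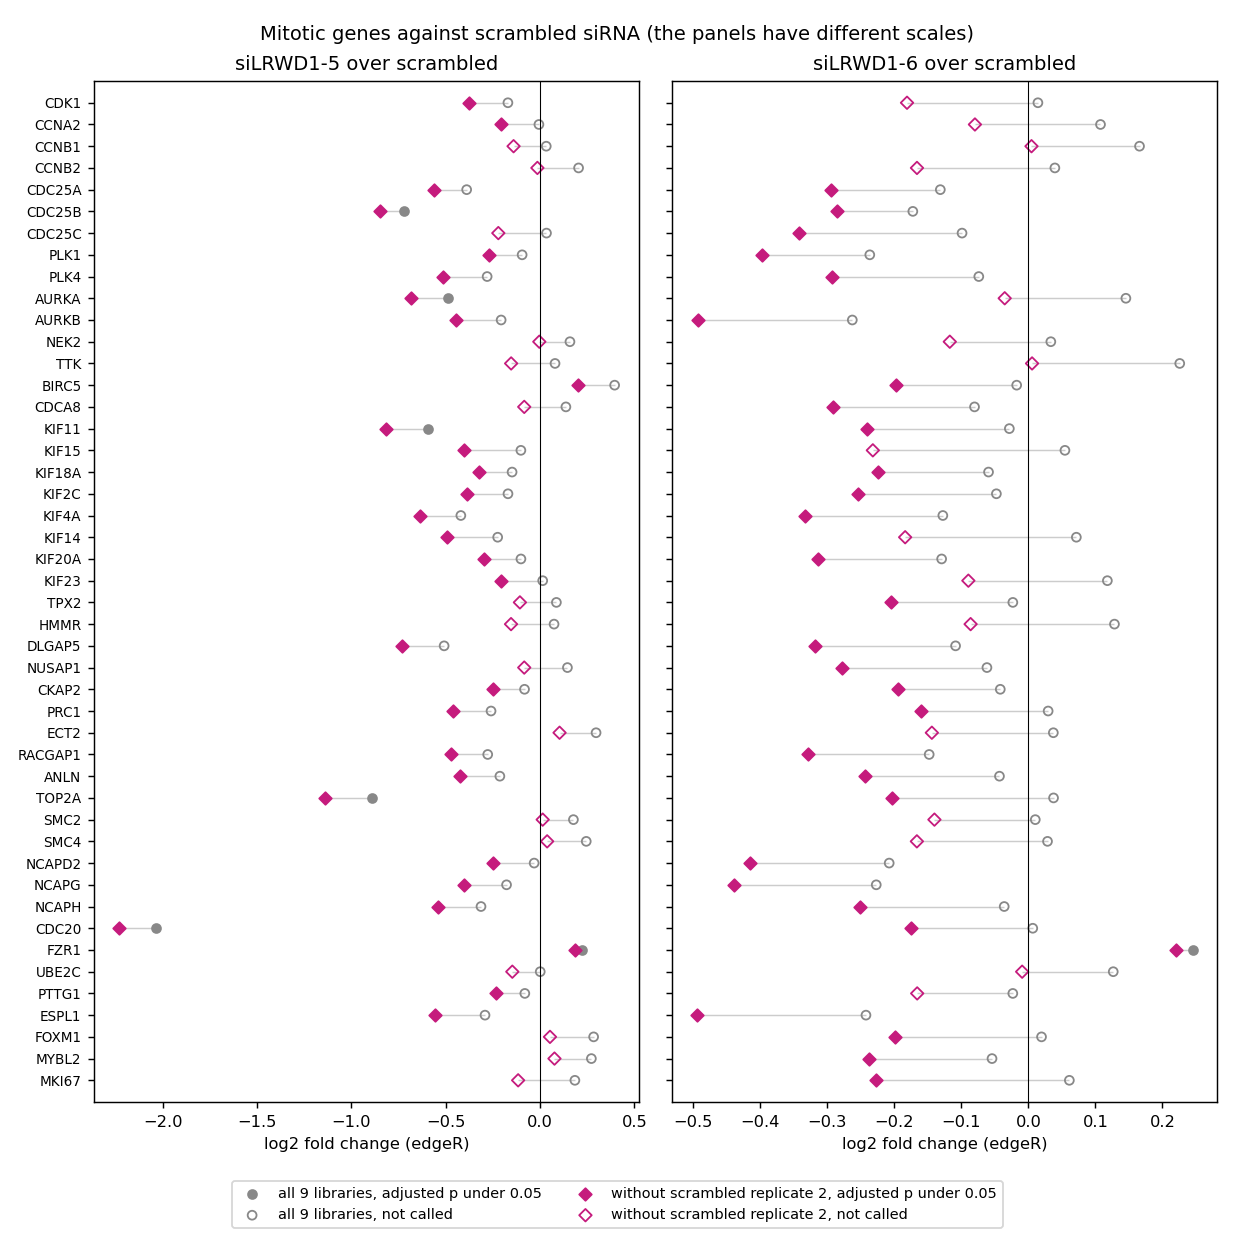
Log2 fold change (x axis) of each mitotic gene (y axis) with siLRWD1-5 (left) and siLRWD1-6 (right) over scrambled siRNA, with all 9 libraries (circles) and without scrambled replicate 2 (diamonds), filled where the adjusted p is under 0.05. Leaving out that library, the lowest scrambled one for every gene shown, moves every gene to lower values by construction. With siLRWD1-6 it takes the calls from 0 lower to 29 lower.

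The direct comparison of the siRNAs uses no scrambled library for its fold changes. In the fit of all 9 libraries, 5 of the 46 genes were higher with siLRWD1-6 than with siLRWD1-5 (CDC20, TOP2A, AURKA, KIF11 and CDC25B) and 0 were lower, where 22.4% of all tested genes were higher and 20.9% lower. In edgeR 1 gene was lower at an unadjusted p under 0.05, and DESeq2 called 1 lower. That gene was BIRC5, which was also called with the replicate block (-0.41, adjusted p = 0.024). TOP2A was 1.90-fold higher with siLRWD1-6 (a log2 fold change of 0.93, SE 0.22, adjusted p = 0.0095). AURKA was 1.55-fold higher (0.63, SE 0.15, adjusted p = 0.008) and CDC25B 1.46-fold (0.55, SE 0.11, adjusted p = 0.0018). KIF11 was 1.48-fold higher (0.56, SE 0.19, adjusted p = 0.038), a call lost when any of the 6 siRNA libraries was left out (adjusted p up to 0.11). For all 5, every siLRWD1-6 library was above every siLRWD1-5 library.

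The fit of all 9 libraries shares the spread of the scrambled group, which was wide for these genes. When the 6 siRNA libraries were fitted alone, 15 genes were higher with siLRWD1-6 and 10 lower, where 28.2% of all tested genes were higher and 27.2% lower, with a median log2 fold change of 0.072. In the fit of 8 libraries without scrambled replicate 2, 17 were higher and 9 lower (background 28.5% and 25.9%). The values without overlap between the siRNA groups numbered 16 higher and 10 lower of 46, against 30.7% and 30.3% of all genes. Besides the 5 genes above, those higher with siLRWD1-6 in the fit of 6 libraries were DLGAP5 (0.40, SE 0.058), the kinesins KIF14 and KIF4A, PRC1, NCAPH, CDC25A, PLK4, CDK1, ANLN and CCNB1. Those lower were BIRC5 (-0.41, SE 0.053, adjusted p = 4.5e-06), MYBL2 (-0.33, SE 0.055, adjusted p = 8.9e-05), FOXM1, ECT2, SMC4, NUSAP1, NCAPD2, SMC2, CCNB2 and PLK1. The shares of the 46 genes called, 32.6% higher and 21.7% lower, were near those over all genes. Except for the 5 genes above, 0 of these were called in the fit of all 9 libraries. The 21 genes not called in that fit included AURKB, KIF20A, NCAPG and ESPL1, with log2 fold changes of -0.057, -0.028, -0.049 and 0.050.

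**Figure D5:**
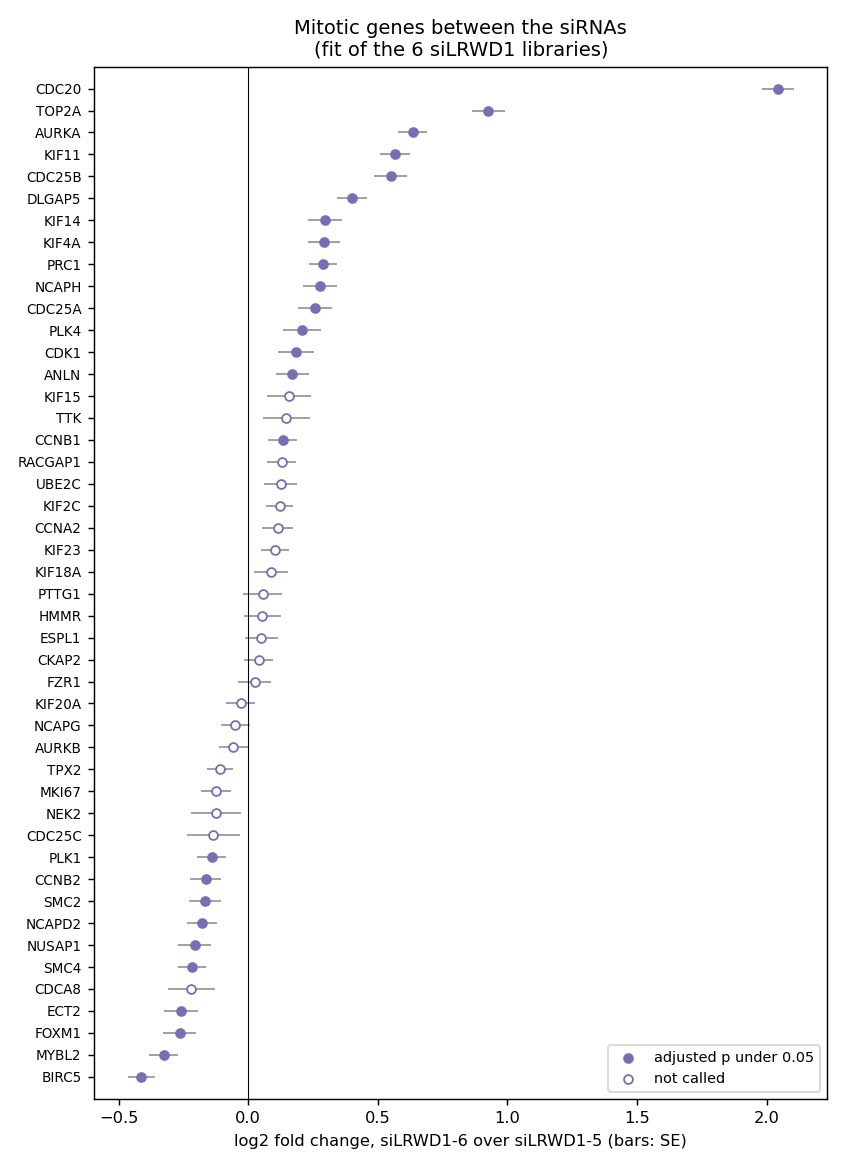
Log2 fold change of siLRWD1-6 over siLRWD1-5 (x axis, bars are SE) for each of the 46 genes (y axis) from the fit of the 6 siRNA libraries, filled where the adjusted p is under 0.05. CDC20 stands at 2.04 and TOP2A at 0.93, and BIRC5 is the lowest at -0.41.

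The partners of these genes were read from lists of the same pathway. Their counts stand against 20.3% of all tested genes lower and 18.5% higher with siLRWD1-5, and 7.78% lower and 8.81% higher with siLRWD1-6. In the fit without scrambled replicate 2 those shares were 25% and 24% with siLRWD1-5, and 13.3% and 15.3% with siLRWD1-6. That library held the lowest scrambled value for 23 of 23 kinetochore, 40 of 40 other mitotic and 29 of 30 S phase genes. Over all tested genes this held for 39.8%, so these shares are no like background for lists shifted down by construction. Of 23 kinetochore and checkpoint genes, 7 were lower (30.4%) and 0 higher with siLRWD1-5, and 0 were called with siLRWD1-6. They included MAD2L1 (-1.42, SE 0.17, adjusted p = 0.00015), which encodes the checkpoint protein that holds CDC20 inactive, and BUB3 (-0.47, SE 0.071, adjusted p = 0.00037), another part of that inhibitor. ZWILCH (-1.18) and SKA1 (-0.93), parts of the outer kinetochore, were lower too. Without scrambled replicate 2, 16 were lower with siLRWD1-5 (69.6%) and 12 with siLRWD1-6 (52.2%). Against siLRWD1-5, 7 of the 23 were higher and 1 lower with siLRWD1-6 (background 22.4% and 20.9%), and 12 were higher and 2 lower without scrambled replicate 2 (background 28.5% and 25.9%).

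Of the 15 APC/C genes in the count table, 3 were lower (20%) and 1 higher with siLRWD1-5, near the share over all genes, and 2 were lower and 1 higher with siLRWD1-6. The subunit ANAPC13 changed most, at -0.93 with siLRWD1-5 (SE 0.10, adjusted p = 2.4e-05). Without scrambled replicate 2, 5 were lower and 2 higher with siLRWD1-5, and 2 were lower and 2 higher with siLRWD1-6. Of 19 genes that control this expression programme, 6 were lower (31.6%) and 0 higher with siLRWD1-5, among them LIN52 (-0.69) and RBBP4 (-0.40), subunits of the MuvB core, and the repressor E2F7 (-0.83). With siLRWD1-6, 4 were higher (21.1%) and 1 lower, and those higher included LIN54, the MuvB subunit that contacts the CHR (0.56, SE 0.13, adjusted p = 0.012). LIN54 and the MuvB subunit LIN37 were not lower with siLRWD1-5, averaging 14.9 and 16.9 CPM against 13.8 and 15.8 CPM with scrambled siRNA. Of the 19 genes, leaving out scrambled replicate 2 gave 9 lower and 1 higher with siLRWD1-5, and 6 lower and 4 higher with siLRWD1-6.

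Of the 40 other mitotic genes, 4 were lower and 1 higher with siLRWD1-5, led by DEPDC1B (-1.46) and lamin B1 (LMNB1, -1.17), and 1 was lower and 1 higher with siLRWD1-6. The 10% lower with siLRWD1-5 was below the share over all genes. Of the 30 S phase genes, 10 were lower (33.3%) with siLRWD1-5, including the licensing factor CDC6 (-0.99) and the clamp PCNA (-0.47), and 2 were lower (6.67%) with siLRWD1-6, CCNE2 (-1.05) and RRM2 (-0.62). When scrambled replicate 2 was left out, 23 of the 40 other mitotic genes (57.5%) and 24 of the 30 S phase genes (80%) were lower with siLRWD1-5, and 17 (42.5%) and 20 (66.7%) with siLRWD1-6. Nearly all genes of both lists had their lowest scrambled value in that library, so these counts carry its shift by construction.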

How the data were processed

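The authors deposited raw read counts per gene symbol, whole numbers with no normalization, in a table of 9 libraries. The build was hg19, and the tools named are HTSeq 0.5.4p3, TopHat2 2.0.10 and bcl2fastq 1.8.4, all per the submitters' processing notes. How HTSeq was set (annotation, mode, strand) is not given in the sources used here. Per the labels' protocols, the kit was TruSeq RNA v2. It keeps no strand information, so overlapping antisense genes are not separated, and near-identical copies can take each other's reads.

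Tests used edgeR 4.0.16 under R 4.3.3 after filterByExpr and TMM (robust quasi-likelihood fit, group as the only term, all 9 libraries), with Benjamini-Hochberg adjustment over the 13648 genes kept. SE were derived from the F statistic. DESeq2 1.42.0, RLE size factors, other filters, a replicate block, fits of the compared groups and left-out libraries were alternatives. The direct comparison of siRNAs without scrambled replicate 2 was added after seeing the data. The fit was tested on simulated counts with 200 changed genes. Levels per kilobase use the longest coding transcript of GENCODE v29, used for length only. P-values measure the spread between libraries described as independent experiments.

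The 46 genes and the other lists were chosen with earlier results of these data known. All 46 could be named, and of each other list at most 4 called genes with the smallest p per comparison. CDKN1A, CDKN1B and LIN37 were named outside that rule.

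Same-numbered libraries deviated together from their group means for siLRWD1-5 and scrambled (correlations across genes 0.30, 0.43 and 0.13). The values were 0.21, 0.26 and 0.12 for siLRWD1-6 and siLRWD1-5, and 0.34, 0.28 and 0.017 for siLRWD1-6 and scrambled. It is not stated that a number marks a shared experiment. The main fit did not pair libraries by number, and the replicate block, which did, was an alternative for each comparison.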

Additional observations from a re-analysis of the deposited data

Results flagged for a closer look

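The effects of the siRNAs on 5 of the 46 genes differed from each other by the test of the direct comparison, edgeR's quasi-likelihood contrast of siLRWD1-6 over siLRWD1-5 with Benjamini-Hochberg adjustment. That is 10.9% of them, where 43.4% of all tested genes were called in this contrast. That fit shares the spread of the scrambled group, which was wide for the 46 genes. In the fit of the 6 siRNA libraries alone, 32.6% of the 46 were higher and 21.7% lower, near the 28.2% and 27.2% of all tested genes. The log2 difference was 2.045 for CDC20 (adjusted p = 1.3e-05), 0.9266 for TOP2A (adjusted p = 0.0095) and 0.6341 for AURKA (adjusted p = 0.008). The KIF11 call was lost when any of the 6 siRNA libraries was left out. The difference was 0.5647 for KIF11 (adjusted p = 0.038) and 0.5487 for CDC25B (adjusted p = 0.0018). The same contrast for LRWD1 gave -0.48 (adjusted p = 0.0058), the lower level being that of siLRWD1-6. What sets the siRNAs apart was not tested.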

How the results depend on the processing

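Counts of called genes among the 46 depended mainly on scrambled replicate 2, and the reason that library differs was not tested. With siLRWD1-5 over scrambled, left-out libraries gave 0 to 2 genes higher and 3 to 28 lower, and the fit without replicate 2 of any group gave 3 and 27. The replicate block gave 2 higher and 7 lower, DESeq2 2 and 7, a fit of those groups 0 and 3, and no filter 1 and 3. With siLRWD1-6 over scrambled, left-out libraries gave 0 to 1 higher and 0 to 29 lower, and no replicate 2 gave 1 and 25. The block left 1 and 0. With siLRWD1-6 over siLRWD1-5, the fit of those groups gave 15 higher and 10 lower, the fit without scrambled replicate 2 gave 17 and 9, no replicate 2 gave 10 and 12, and the block and DESeq2 each gave 5 and 1. Single siRNA libraries left out gave 4 and 0. RLE size factors and a filter of 1 CPM in 3 libraries moved no count. With left-out libraries, the median log2 fold change ran from -0.26 to 0.030 with siLRWD1-5 over scrambled, from -0.21 to 0.098 with siLRWD1-6 over scrambled and from 0.026 to 0.14 between the siRNAs, and it was lowest against scrambled siRNA without scrambled replicate 2. Signs turned, with a call, when that library or replicate 2 of all groups was left out. Over all left-out libraries KIF23 ran from -0.21 to 0.14 with siLRWD1-5 (-0.17 without replicate 2). With siLRWD1-6, PRC1 ran from -0.16 to 0.16, TOP2A from -0.21 to 0.20 (-0.20 without scrambled replicate 2), CDC20 from -0.18 to 0.14, FOXM1 from -0.20 to 0.15 (-0.19 without replicate 2), MKI67 from -0.23 to 0.34 and CDK1 from -0.19 to 0.13. The cause was not tested. With 3 libraries per group, an uncalled gene is not shown to be unchanged.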
